A study of Rattus norvegicus with 9 samples.

Results

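Genes that mark the deepest part of the cerebral cortex, layer 6 and layer 6b, were followed across 9 rats. They were Cplx3, Nxph4, Ctgf, Syt6, Foxp2, Ntsr1, Tle4 and Sulf1, 8 of the 37209 genes in the table of read counts. They were picked from the known markers of these layers with values of these same rats in view, in which Cplx3, Syt6 and Sulf1 stood out. The differences between groups given for the 8 markers are therefore a description. Counts of markers past a threshold are given for completeness and support nothing. RNA was taken from the frontal cortex of male Wistar rats aged 14 weeks, depleted of rRNA and sequenced. The Control group (rats A1, A2 and A6) stayed with the dams. The MS group (rats B3, B4 and B6) went through neonatal maternal separation, 4 h each day on postnatal days (PND) 1 to 21. The MS+EA group (rats C3, C10 and C16) was separated in the same way and then given electroacupuncture at the points GV20 and GV29 every other day on PND 61 to 81. All 3 groups received the isoflurane anaesthesia used for the needling. Every rat is 1 animal and 1 library. The litters are not given in the sources used here, and no sham acupuncture group was sequenced, so an effect of the needling alone and an effect of the current cannot be told apart.

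Layer 6 holds the corticothalamic neurons, which send axons from the cortex back to the thalamus. Layer 6b lies below it on the white matter and is what remains of the subplate, an early-born layer that guides the first connections between thalamus and cortex. Cplx3, Nxph4 and Ctgf are classical markers of layer 6b, while Syt6, Foxp2, Ntsr1, Tle4 and Sulf1 label neurons of layer 6. Cplx3 encodes a complexin, a small protein that binds the assembled SNARE complex and controls the fusion of synaptic vesicles. Syt6 encodes a synaptotagmin, a membrane protein of the family that links calcium to vesicle fusion. Sulf1 is a secreted sulfatase that trims sulfate groups from heparan sulfate chains. None of these genes is made by deep-layer neurons alone. Foxp2 is also made in striatal projection neurons, and Ctgf in fibroblasts and vessel walls.

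Levels are given as CPM, the reads of a gene per 1000000 reads in the tested genes of its library, after scaling of the libraries by the TMM method. Control libraries held 16153292 to 19007907 counts, MS libraries 16106381 to 17243320 and MS+EA libraries 12479905 to 14913736. The tissue carried cortical RNA in each library, with 7 markers of cortical glutamatergic neurons summing to 4324 to 5097 CPM in Control, 4448 to 4564 CPM in MS and 3810 to 3964 CPM in MS+EA, where all 3 rats lay below the others. Markers of other cells also set libraries apart. The 7 markers of leptomeningeal fibroblasts, the cells of the membranes over the cortex, summed to 34.9 to 45.7 CPM in the Control rats, 48.3, 382 and 85.9 CPM in B3, B4 and B6, and 119, 49.7 and 178 CPM in C3, C10 and C16. Rats B4 and C16 were highest, and results that rest on them are also given without both. In bulk tissue, fewer cells of a type and less RNA per cell cannot be told apart.

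Among the 8 markers, the levels of Cplx3, Syt6 and Sulf1 were lower in all MS rats than in all Control rats and higher in all MS+EA rats than in all MS rats. Nxph4, Ctgf, Foxp2, Ntsr1 and Tle4 overlapped between the groups. The plot of levels by rat shows both kinds of marker.

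**Figure D1:**
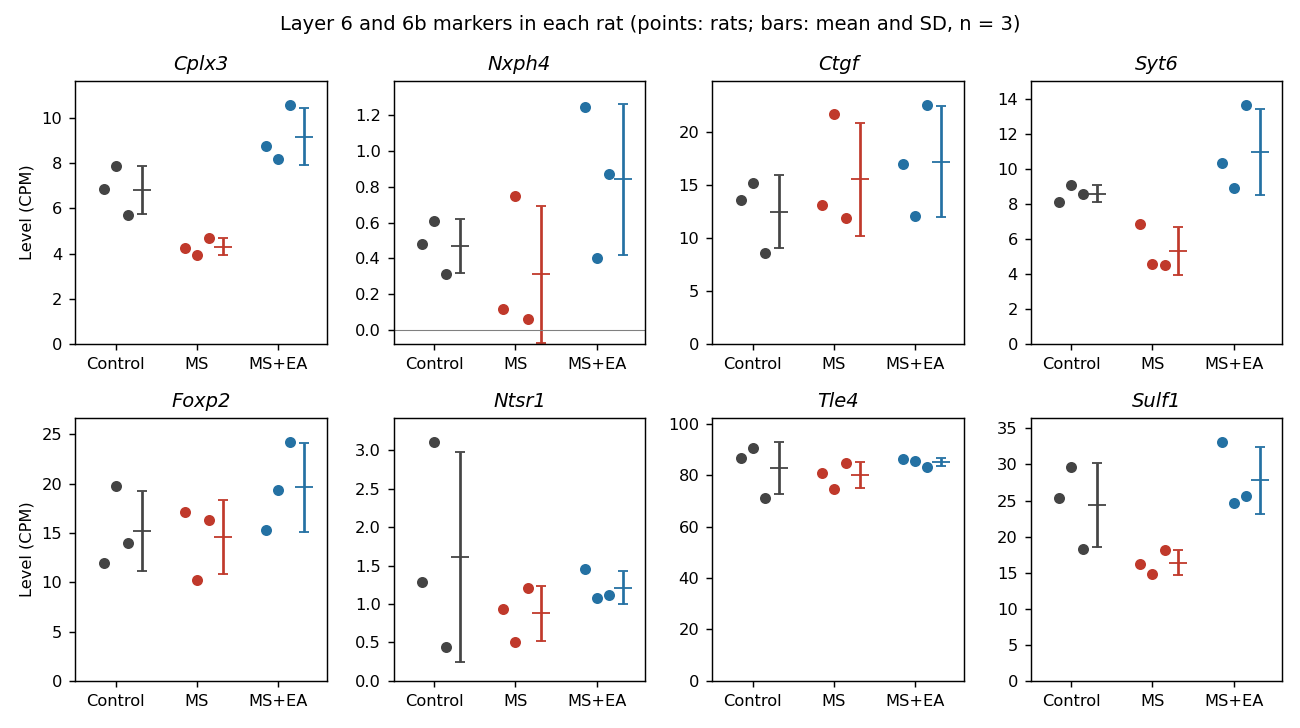
Level of each of the 8 markers in CPM (vertical axis, separate for each gene) in the Control, MS and MS+EA groups. Points are single rats in the order A1, A2, A6, B3, B4, B6, C3, C10, C16, and the bars give the mean and SD of 3 rats. Cplx3, Syt6 and Sulf1 have no MS point within the range of the other groups, and Tle4 stays between 71.1 and 90.5 CPM in all 9 rats.

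The complexin gene Cplx3 was the marker whose 3 groups did not overlap at all. It was read at 6.85, 7.87 and 5.72 CPM in Control rats A1, A2 and A6, at 4.26, 3.94 and 4.69 CPM in MS rats B3, B4 and B6, and at 8.74, 8.18 and 10.6 CPM in MS+EA rats C3, C10 and C16. MS was lowest and MS+EA highest. The group means were 6.81 ± 1.07, 4.30 ± 0.376 and 9.16 ± 1.25 CPM (SD, n = 3 each). The fitted log2 fold change was -0.66 (SE 0.179) in MS against Control, 1.09 (SE 0.178) in MS+EA against MS and 0.42 (SE 0.172) in MS+EA against Control. These levels rest on 63 to 133 reads of the gene per rat. Without B4 and C16 the log2 fold changes were -0.61, 0.92 and 0.32, so the order of the groups stayed the same.

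For the synaptotagmin gene Syt6, Control values were 8.14, 9.09 and 8.58 CPM, MS values 6.88, 4.57 and 4.51 CPM and MS+EA values 10.3, 8.91 and 13.7 CPM, each in the order above. All MS rats lay below the other rats, B3 nearest to them, and the MS+EA rat C10 lay below the Control rat A2. The log2 fold changes were -0.69 (SE 0.203) in MS against Control, 1.04 (SE 0.204) in MS+EA against MS and 0.35 (SE 0.197) in MS+EA against Control. Without B4 and C16 they were -0.59, 0.76 and 0.17. In the RefSeq annotation of the build GRCr8, 2 lncRNA genes overlap the span of Syt6. The strand setting of the counting is not stated, so reads of these genes cannot be told from reads of Syt6.

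Levels of the sulfatase gene Sulf1 were 25.3, 29.6 and 18.2 CPM for Control, 16.2, 14.8 and 18.2 CPM for MS, and 33.2, 24.7 and 25.7 CPM for MS+EA. The gap between MS and Control was narrow, since the highest MS rat (B6, 18.16 CPM) lay next to the lowest Control rat (A6, 18.22 CPM). The log2 fold changes were -0.57 (SE 0.171), 0.76 (SE 0.171) and 0.19 (SE 0.168) in the same order of comparisons. Without B4 and C16 they were -0.51, 0.76 and 0.25. A lncRNA gene and a pseudogene overlap the span of Sulf1 in the same annotation.

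The promoters of Cplx3 and Syt6 are shown because these genes moved together over the groups, and that of Ctgf because it did not follow them. They are RefSeq sequences of GRCr8, from 250 bases before to 50 bases after the gene start, on the strand of the gene. Capitals mark the letters of 7 motifs searched on both strands, which were T-box GGTGTGA, SOX ACAAAG, forkhead GTAAACA, E-box CACGTG, D-box TTATGTAA, CRE TGACGTCA and TATA box TATAAA. Cplx3 lies at chr8:66906151-66906450 (minus strand), Syt6 at chr2:193781226-193781525 (plus strand) and Ctgf, listed there as Ccn2, at chr1:22624565-22624864 (minus strand).
Cplx3: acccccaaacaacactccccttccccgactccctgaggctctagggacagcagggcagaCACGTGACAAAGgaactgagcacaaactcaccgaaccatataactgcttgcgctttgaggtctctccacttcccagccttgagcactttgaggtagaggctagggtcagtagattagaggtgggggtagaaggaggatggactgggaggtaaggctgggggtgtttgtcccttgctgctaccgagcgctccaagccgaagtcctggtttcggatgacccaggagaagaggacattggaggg
Syt6: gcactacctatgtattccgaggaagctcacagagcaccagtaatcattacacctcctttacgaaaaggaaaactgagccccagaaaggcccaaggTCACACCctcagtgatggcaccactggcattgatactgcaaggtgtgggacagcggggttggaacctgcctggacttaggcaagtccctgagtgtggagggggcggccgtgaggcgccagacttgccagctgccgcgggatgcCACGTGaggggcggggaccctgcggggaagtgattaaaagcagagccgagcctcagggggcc
Ctgf: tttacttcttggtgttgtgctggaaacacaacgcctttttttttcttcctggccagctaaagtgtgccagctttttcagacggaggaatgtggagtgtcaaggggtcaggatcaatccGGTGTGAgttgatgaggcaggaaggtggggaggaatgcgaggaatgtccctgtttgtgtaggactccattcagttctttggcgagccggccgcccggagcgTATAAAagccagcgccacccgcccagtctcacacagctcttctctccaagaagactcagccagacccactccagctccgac
The Cplx3 window holds the E-box letters 191 bases before the start and the SOX letters directly after them. The Syt6 window holds the reverse complement of the T-box letters, TCACACC, 155 bases and the E-box letters 12 bases before the start. In the Ctgf window the T-box letters stand 132 bases and the TATA box 31 bases before the start. The E-box letters occur in 6.42% of the 33469 rat promoters in the table, the SOX letters in 18.8%, the T-box letters in 3.83% and the TATA box letters in 14.2%. Of the 5 markers with a promoter in that table, Ntsr1 holds the T-box letters on the opposite strand at the far end of its window, 250 bases before the start, and Tle4 holds none of the 7 motifs. Foxp2, Sulf1 and Nxph4 had no entry. These matches of letters are a description of the windows and do not show binding.

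Among the secreted markers of layer 6b, Ctgf did not have the order of groups seen in Cplx3. Ctgf, a matricellular protein of the CCN family, was at 13.6, 15.2 and 8.64 CPM in A1, A2 and A6, at 13.1, 21.7 and 11.9 CPM in B3, B4 and B6, and at 17.0, 12.1 and 22.6 CPM in C3, C10 and C16. The groups overlapped, and the highest values were those of B4 and C16. The log2 fold changes were 0.31 (SE 0.271) in MS against Control, 0.14 (SE 0.269) in MS+EA against MS and 0.46 (SE 0.272) in MS+EA against Control. Ctgf was the marker with a positive log2 fold change in MS against Control, where the other 7 were negative. Without B4 and C16 this value was 0.00063, and those of MS+EA against MS and Control were 0.22 and 0.22.

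Nxph4, a neurexophilin that binds neurexins at synapses, was close to the limit of the data. Its reads numbered 9, 10 and 5 among Control rats, 2, 12 and 1 among MS rats and 18, 6 and 11 among MS+EA rats. Rats B3 and B6 were at or below 3 reads while B4 of the same group had more than any Control rat. The exact Poisson 95% interval ran from 0.0253 to 5.57 reads for the 1 read of B6 and from 6.20 to 21.0 reads for the 12 of B4, and such intervals cover counting error only. The log2 fold changes of Nxph4 were -0.61 (SE 0.760), 1.44 (SE 0.727) and 0.83 (SE 0.682). The first of them moved to -2.30 without B4, so the size of a difference in Nxph4 was not measurable at this depth.

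Tle4 and Foxp2 are the nuclear markers of layer 6, and Tle4 had the smallest log2 fold changes in size of the 8. Tle4 encodes a Groucho co-repressor, and was at 86.8, 90.5 and 71.1 CPM in Control, 80.9, 74.6 and 84.7 CPM in MS and 86.2, 85.6 and 83.2 CPM in MS+EA rats. The means of 82.8 ± 10.3, 80.1 ± 5.08 and 85.0 ± 1.55 CPM (SD, n = 3 each) differed by less than the spread of the Control rats. With 1047 to 1621 reads per rat, Tle4 was the most deeply counted of the 8 and had the smallest standard errors. Its log2 fold changes were -0.05 (SE 0.0890), 0.09 (SE 0.0894) and 0.04 (SE 0.0893). Foxp2, a forkhead transcription factor, had Control levels of 11.9, 19.8 and 14.0 CPM, MS levels of 17.1, 10.3 and 16.3 CPM and MS+EA levels of 15.3, 19.4 and 24.2 CPM. B3 and B6 lay within the Control range and B4 below it, and the log2 fold changes were -0.06 (SE 0.229), 0.43 (SE 0.229) and 0.37 (SE 0.228). Without B4 and C16 those of Foxp2 were 0.14, 0.06 and 0.19, with the first changed in sign.

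The receptor of the set, Ntsr1, binds the peptide neurotensin and is widely used to reach corticothalamic neurons in mice. Control rats had 24, 51 and 7 reads of it, MS rats 16, 8 and 20 and MS+EA rats 21, 16 and 14. The highest and the lowest level of the 9 rats both belonged to the Control group, at 3.11 CPM in A2 and 0.44 CPM in A6. The log2 fold changes of Ntsr1 were -0.86 (SE 0.566), 0.46 (SE 0.588) and -0.40 (SE 0.558). Without A2 the first was 0.0077 and the third 0.48, so the direction against Control rested on 1 rat. A pseudogene overlaps the span of Ntsr1 in the same annotation.

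**Figure D2:**
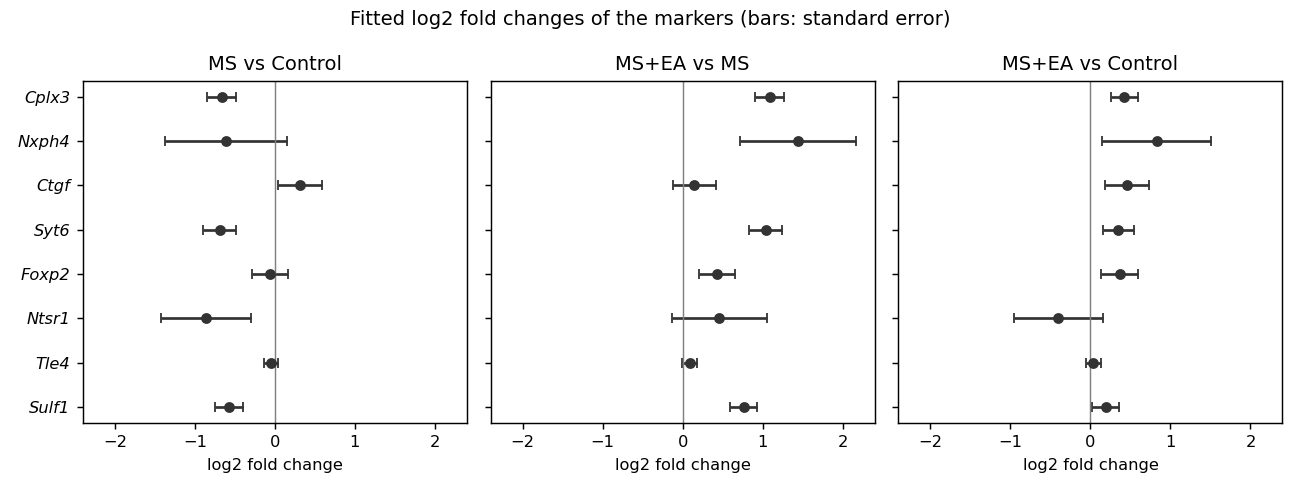
Fitted log2 fold change (horizontal axis) of each of the 8 markers in MS against Control, MS+EA against MS and MS+EA against Control. Points are the estimates of the edgeR fit over 9 rats and bars their standard errors. The estimates of Cplx3, Syt6 and Sulf1 lie between -0.69 and -0.57 in the first panel and between 0.76 and 1.09 in the second, and the wide bars belong to Nxph4 and Ntsr1, the genes with the fewest reads.

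Over the 8 markers the median log2 fold change was -0.59 in MS against Control, with 7 lower and 1 higher. It was 0.61 in MS+EA against MS, with 8 higher, and 0.36 in MS+EA against Control, with 7 higher and 1 lower. Over all 16837 genes tested the medians were -0.0014, 0.00059 and 0.0055. The first median moved to -0.19 without the Control rat A2. MS+EA against MS and MS against Control share the MS rats, so opposite signs in the pair are not independent. The plot of fold changes shows the markers side by side.

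A gene was called where its adjusted p in edgeR's quasi-likelihood test was under 0.05 and its fold change above 1.5. In MS against Control 0 of the 8 markers were called, beside 0.0238% of all genes tested. In MS+EA against MS 0 of 8 were called, beside 0.0178% of all genes, and in MS+EA against Control 0 of 8, beside 1.37%. At an unadjusted p under 0.05 stood 3 markers in MS against Control (Cplx3, Syt6 and Sulf1, 10.6% of all genes), the same 3 in MS+EA against MS (12.4% of all genes) and Cplx3 in MS+EA against Control (22.5% of all genes). Levels in all MS rats were below those in all Control rats for these 3 markers and for 7.53% of all genes. Levels in all MS+EA rats were above those in all MS rats for the same 3 and for 8.27% of all genes, and above those in all Control rats for Cplx3 and for 13.0% of all genes. Those contrasts helped to pick the markers, and nothing is read from these counts.

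The calls depended on the tool. In MS+EA against MS, DESeq2 called 3 of the 6 markers to which it gave an adjusted p, beside 0.319% of all genes. With every gene of at least 1 read kept in the fit, edgeR called 3 of 8, beside 0.277% of all genes. Both times the 3 were Cplx3, Syt6 and Sulf1, and in MS against Control and MS+EA against Control both gave 0 calls among the markers. These calls are on the contrast that helped to pick the genes and are not evidence for them.

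The markers also varied among rats of the same group. The Control rat A2 had the highest level of its group for 8 of 8 markers, and A6 the lowest for 6 of 8, the exceptions being Syt6 and Foxp2. Over all genes tested, A2 was highest of the Control rats in 32.6% and A6 lowest in 32.5%. In the MS group B4 was lowest for Cplx3, Foxp2, Ntsr1, Tle4 and Sulf1 and highest for Nxph4 and Ctgf. In the MS+EA group C10 was lowest for 6 of 8 markers, the exceptions being Foxp2 and Tle4. The variation within the Control group thus ran through nearly the whole set. In MS, Nxph4 and Ctgf were highest in B4, where Cplx3, also a layer 6b gene, was lowest. The Nxph4 order rests on 2, 12 and 1 reads in B3, B4 and B6.

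Each pair of markers was then correlated over the 9 rats. With the group means left in, the median Pearson r of log2 CPM over the 28 pairs was 0.51, and 27 of the pairs were positive. These values include the differences between groups that helped to pick the markers. After the group mean of each gene was taken out, the median was 0.29, from -0.51 to 0.95, with 22 pairs positive. An exact two-sided permutation test over the 216 orders of rats within groups cannot go below p = 0.0046. At an unadjusted p under 0.05 stood 4 of the 28 pairs, and the smallest p after Benjamini-Hochberg adjustment over the 28 was 0.0864, so no pair passed the correction.

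The highest correlation within groups joined Ntsr1 and Tle4, with Pearson r 0.95 and Spearman rho 0.93 (exact permutation p = 0.0093 for each). Ntsr1 and Sulf1 gave r 0.91 and rho 0.95 (exact p = 0.0046 for each), and Tle4 and Sulf1 gave r 0.87 and rho 0.90. With the deviations of A2 and A6 left out, the 3 values of r were 0.87, 0.78 and 0.64. The Control means still included A2 and A6, so these values cannot show whether the correlations rested on those rats. Of the layer 6b genes, Nxph4 and Ctgf gave r 0.84 and rho 0.77 (exact p = 0.0232 for r). Cplx3, also of layer 6b, gave r 0.50 with Ctgf and 0.02 with Nxph4. Cplx3 and Syt6, which had r 0.90 over the 9 rats with the groups left in, gave r 0.42 within groups (exact p = 0.278). Syt6 and Sulf1 gave 0.74 with the groups left in and 0.0060 within groups (exact p = 0.995). Cplx3 and Sulf1 gave 0.89 and 0.64 (exact p = 0.194 within groups).

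**Figure D3:**
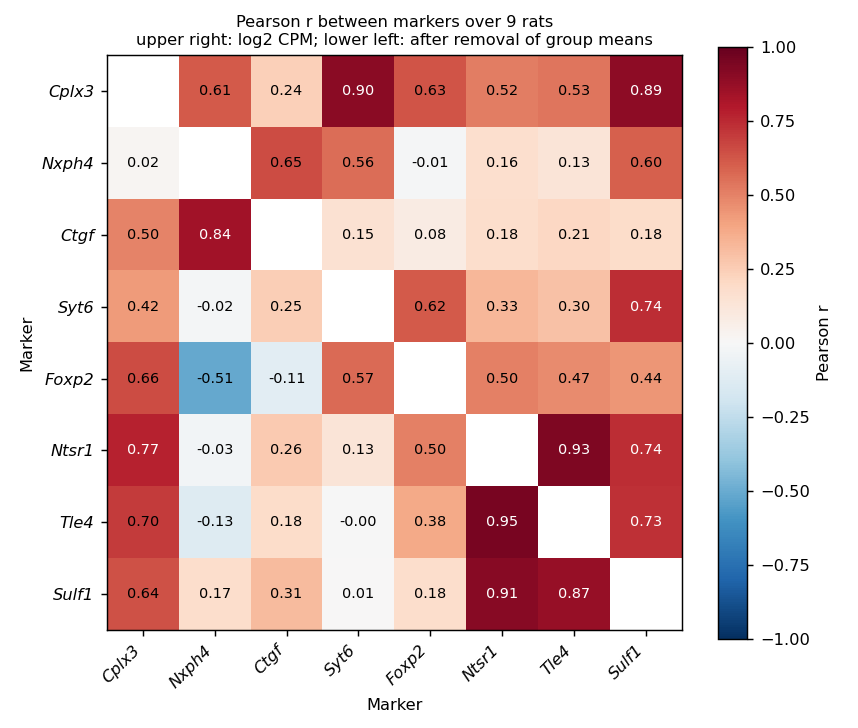
Pearson r between the 28 pairs of markers over 9 rats (colour and printed value, from -1 to 1), with log2 CPM above the diagonal and deviations from the group means below it. Above the diagonal Cplx3, Syt6 and Sulf1 reach 0.74 to 0.90, and below it Ntsr1, Tle4 and Sulf1 reach 0.87 to 0.95.

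The 8 markers are a small part of the known genes of these layers. A list of 33 other deep-layer genes was also followed, 17 of layer 6 corticothalamic neurons and 16 of layer 6b and subplate, and 30 of them were tested. None of the 30 was called in any comparison. At an unadjusted p under 0.05 stood 5 in MS against Control, 4 in MS+EA against MS and 10 in MS+EA against Control, where the shares over all genes tested were 10.6%, 12.4% and 22.5%. Their median log2 fold change was -0.03 in MS against Control, 0.12 in MS+EA against MS and 0.08 in MS+EA against Control, nearer to 0 than the medians of the 8 markers. The other genes of layer 6 gave medians of -0.19 and 0.18 in the first pair of comparisons, and those of layer 6b 0.08 and 0.07. For 12 tested genes of layer 5 the medians were 0.13 and -0.06, and for 12 of layers 2 to 4 they were 0.11 and -0.12. The difference between the lists was not tested.

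Single genes of the corticothalamic list varied in pattern. Of the 15 tested, 10 had a negative log2 fold change in MS against Control and 5 a positive one. In MS+EA against MS, 12 were positive and 3 negative. Tbr1, the transcription factor that specifies corticothalamic neurons, had log2 fold changes of -0.12, 0.11 and -0.01 in the order used above. Grik3, a kainate receptor subunit, stood at 208, 261 and 236 CPM in Control, 177, 140 and 194 CPM in MS and 204, 193 and 184 CPM in MS+EA rats. Its MS rats lay below all Control rats, as did its MS+EA rats, and its log2 fold changes were -0.46, 0.18 and -0.28 (adjusted p = 0.152 for the first in edgeR's test). Sla had log2 fold changes of -1.26, 0.31 and -0.95, with Control rats spread from 3.86 to 13.0 CPM. Grik3 and Sla thus had the signs of the marker Ntsr1.

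In MS+EA against Control, 3 of the 30 passed the adjusted p without the fold threshold, beside 5.40% of all genes tested. Crym, which encodes a thyroid hormone binding protein, fell by 0.49 on the log2 scale (adjusted p = 0.0459 in edgeR's test), from 110, 128 and 128 CPM in the Control rats to 74.2, 108 and 77.1 CPM. Fezf2, a transcription factor of deep-layer projection neurons, fell by 0.52 on that scale (adjusted p = 0.0363 in the same test), from 29.3 to 32.4 CPM in the Control rats to 17.6 to 25.2 CPM. Nfib, a nuclear factor I gene, rose by 0.35 (adjusted p = 0.0348 in edgeR's test), from 237 to 267 CPM to 283 to 351 CPM. In MS against Control these 3 genes had log2 fold changes of -0.37, -0.22 and 0.18, so their MS+EA levels lay farther from Control than their MS levels did. That differs from the order of the groups in Cplx3, Syt6 and Sulf1, a difference that was not tested.

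Among the 16 listed genes of layer 6b, Nr4a2, a nuclear receptor, had log2 fold changes of -0.65, 0.76 and 0.11. Its levels were 16.5, 12.3 and 17.0 CPM in MS and 42.9, 15.5 and 19.1 CPM in MS+EA, so 1 rat, C3, carried the second difference (adjusted p = 0.373 in edgeR's test). Lpar1, a receptor for lysophosphatidic acid that is also made by oligodendrocytes, gave 37.1, 41.0 and 33.8 CPM in MS and 62.2, 33.0 and 62.0 CPM in MS+EA. Svil, an actin-binding protein, had a log2 fold change of 0.63 in MS against Control (adjusted p = 0.290 in the same test), with B4 highest at 53.7 CPM.

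**Figure D4:**
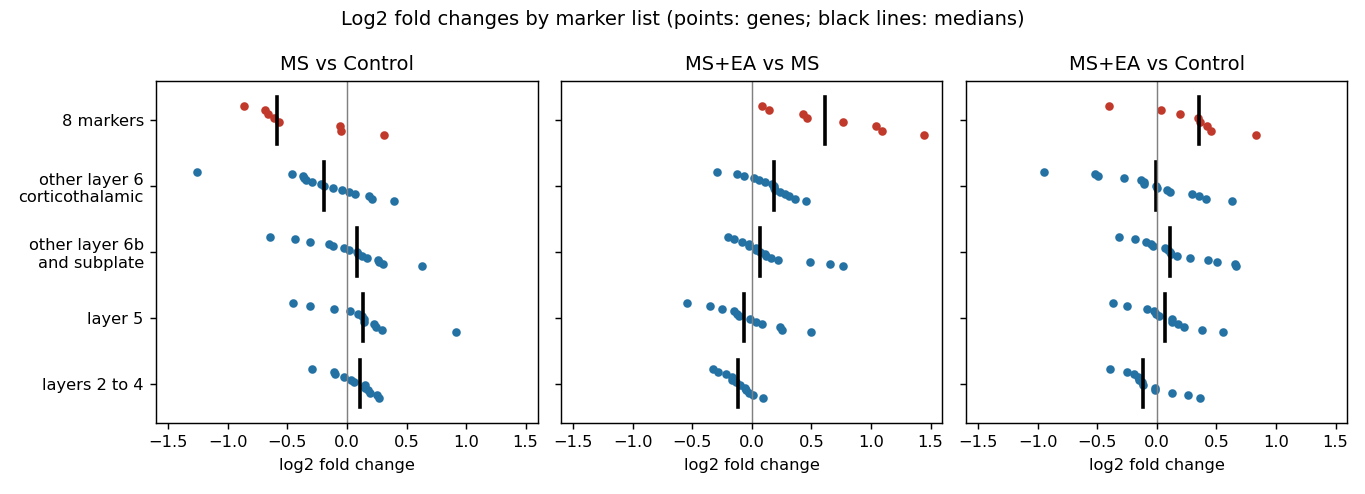
Log2 fold change (horizontal axis) of each tested gene in 5 lists, the 8 markers, other genes of layer 6 corticothalamic neurons, other genes of layer 6b and subplate, layer 5 and layers 2 to 4, in the 3 comparisons. Points are genes and black lines are medians. The median of the 8 markers is -0.59 in MS against Control and 0.61 in MS+EA against MS, and those of the other lists lie between -0.19 and 0.18 in both.

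Markers of other cells that the dissection could hold were read in the same libraries. All 7 fibroblast markers had a positive log2 fold change in MS against Control (median 2.19), 6 of them at an unadjusted p under 0.05 and 0 called. The growth factor gene Igf2, which is one of them, was at 12.9 to 16.2 CPM in the Control rats and reached 226 CPM in B4. The markers of oligodendrocytes, the myelin-forming cells of the white matter next to layer 6b, summed to 2234 to 3399 CPM in Control, 1958 to 3040 CPM in MS and 2157 to 4365 CPM in MS+EA. All 8 oligodendrocyte markers had negative log2 fold changes in MS against Control (median -0.23) and positive ones in MS+EA against MS (median 0.40), with 0 called. The 10 measured markers of striatal projection neurons summed to 314 to 329, 319 to 338 and 318 to 379 CPM, with 0 called. Of these Drd1, a dopamine receptor gene also made in cortex, was at 12.2, 18.2 and 11.9 CPM in Control, 10.4, 10.8 and 14.0 CPM in MS and 20.1, 14.7 and 17.0 CPM in MS+EA. All MS+EA rats lay above all MS rats for Drd1 (adjusted p = 0.286 in edgeR's test), as they did for 8.27% of all genes tested. Of the 10 striatal markers, 6 had positive and 4 negative log2 fold changes in MS+EA against MS (median 0.06). The 6 thalamic markers summed to 53.7 to 60.8, 50.5 to 73.0 and 56.0 to 68.1 CPM, and Gbx2, 1 of the 6, was at 0 in 8 of 9 rats. Slc17a6, the glutamate transporter of thalamic and other subcortical neurons, was at 16.4, 16.1 and 8.39 CPM in Control, 5.48, 8.76 and 8.24 CPM in MS and 20.2, 11.8 and 10.6 CPM in MS+EA. Its log2 fold changes of -0.87, 0.92 and 0.06 had the order of signs of Cplx3 (adjusted p = 0.284, 0.260 and 0.933 in edgeR's test). The other tested thalamic markers Tcf7l2, Prkcd, Ramp3 and Lef1 gave 0.12, 0.52, -0.24 and 0.32 in MS against Control. In MS+EA against MS they gave 0.03, -0.10, -0.16 and -0.42, so none of them had the signs of Cplx3 in both comparisons. The 4 tested endothelial markers summed to 125 to 145 CPM in Control, 156 to 177 CPM in MS and 148 to 161 CPM in MS+EA, so the Control rats were lowest. All 4 had positive log2 fold changes in MS against Control (median 0.28), and Abcb1a rose by 0.42 in MS+EA against Control (adjusted p = 0.0224 in edgeR's test), below the fold threshold. Of the glutamatergic markers, Slc17a7 and Camk2a fell by 0.30 and 0.36 on the log2 scale in MS+EA against Control (adjusted p = 0.0207 and 0.0387 in the same test), also below that threshold. The choroid plexus markers summed to at most 11.8 CPM, in B4. The part of these cells in the values of the 8 markers was not tested.

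The 8 markers were correlated over the 9 rats with the summed levels of fibroblast, oligodendrocyte and striatal markers, 24 relations that were chosen after the data had been seen. Ctgf and the fibroblast markers gave Pearson r 0.80 (exact permutation p = 0.0098, 0.235 after Benjamini-Hochberg adjustment over the 24) and Spearman rho 0.57 (exact permutation p = 0.121). Without B4 and C16 the r was 0.46, so the relation rested on those rats. Within groups it was 0.78 (exact p = 0.0370, adjusted 0.543). Cplx3 gave r -0.12 with the fibroblast markers (exact permutation p = 0.753). Its levels in B3, B4 and B6 were 4.26, 3.94 and 4.69 CPM, beside 48.3, 382 and 85.9 CPM of fibroblast markers. A part of fibroblasts in the level of Cplx3 was not tested. Sulf1 gave r 0.69 and rho 0.67 with the oligodendrocyte markers (exact p = 0.0416 and 0.0589, adjusted 0.50 and 0.750), and r 0.32 without B4 and C3. Within groups that r was 0.66 (exact p = 0.0926). The sign was not particular to Sulf1. With the same oligodendrocyte markers, r was 0.59 for Syt6, 0.54 for Tle4, 0.53 for Cplx3 and 0.53 for Ntsr1. It was 0.41 for Nxph4, 0.26 for Ctgf and 0.22 for Foxp2. The smallest exact permutation p of these was 0.0966, for Syt6. Without B4 and C3, r was 0.22 for Cplx3 and 0.37 for Syt6. None of the 24 relations passed the correction.

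**Figure D5:**
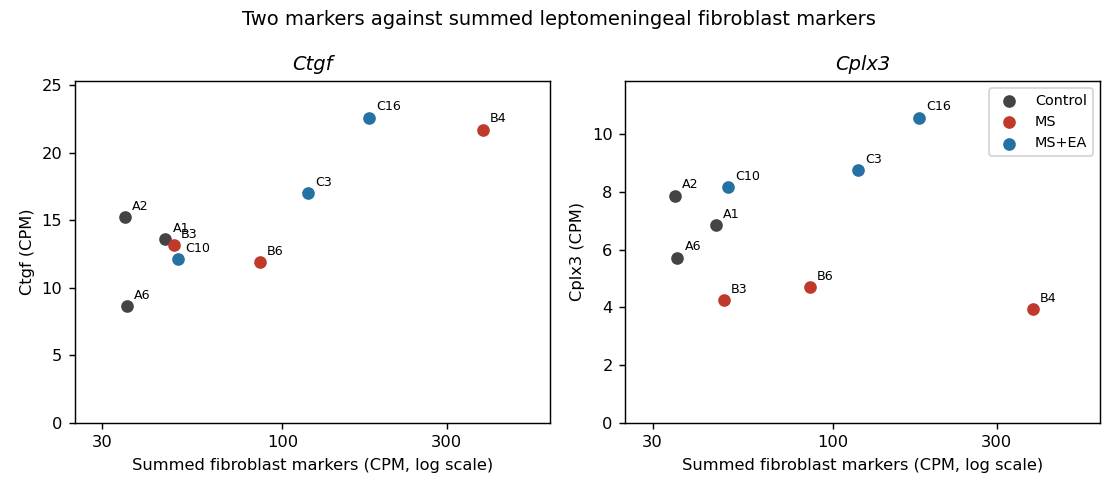
Level of Ctgf (left) and Cplx3 (right) in CPM against the summed level of 7 leptomeningeal fibroblast markers in CPM on a log scale. Each point is 1 rat, with its name and the colour of its group. The rats B4 and C16, with 382 and 178 CPM of fibroblast markers, have the highest Ctgf. The 3 MS rats are at 3.94 to 4.69 CPM of Cplx3 and at 48.3 to 382 CPM of fibroblast markers.

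Relatives and partners of the markers were read to see how the rest of each family stood. The widely expressed complexins Cplx1 and Cplx2 had log2 fold changes of 0.10 and 0.13 in MS against Control and -0.26 and -0.11 in MS+EA against MS. None of the 5 tested relatives of Cplx3, which include the SNARE proteins Stx1a, Snap25 and Vamp2, was called. Of the synaptotagmins, Syt3, Syt9, Syt10 and Syt1 gave -0.17, -0.13, -0.19 and 0.06 in MS against Control, and -0.13, -0.42, 0.38 and -0.11 in MS+EA against MS. Sulf2, the other heparan sulfate sulfatase, gave -0.17 and -0.03 in those comparisons, so a difference of the size seen in Sulf1 was not read in it. Nxph3, which is also made in layer 6b, gave -0.60 and 0.42 (adjusted p = 0.288 and 0.423 in edgeR's test), and Nxph1 gave -0.05 and -0.14. Cyr61, a CCN family relative of Ctgf, gave -0.20 and -0.79. Foxp1 and Tle1 gave 0.03 and -0.14 in MS against Control. The second neurotensin receptor, Ntsr2, which is mostly glial, fell by 0.53 on the log2 scale in MS+EA against Control (adjusted p = 0.0137 in edgeR's test), below the fold threshold.

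The genes most like the markers were sought among 15267 others with a mean of at least 1 CPM, by Pearson r over the 9 rats with the mean z-score of the 8 markers. That mean was -0.84 in A6, 0.07 in A1 and 0.82 in A2, between -0.82 and -0.56 in MS, and 0.25 to 0.95 in MS+EA. It overlapped between Control and MS through A6 alone. The closest genes were LOC102550499 (r 0.93), Xpa (r 0.91), Rnmtl1 (r 0.90) and LOC100364673 (r 0.90). Ndufs5, Taf9-ps, LOC100912473, LOC103693569, LOC102547395 and Ptpdc1 followed with r of 0.88 each. None of these 10 is in the lists of layer markers. Of the markers themselves Sulf1 and Cplx3 gave r 0.91, Syt6 0.79 and Ctgf 0.46 with the mean of which each is a part. With 9 rats and so many genes compared, these values of r are a description and carry no test.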

How the data were processed

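Read counts per gene of 9 rats were used, 3 in each group by their labels. The authors used FastQC for read quality and Hisat2 (version 2.0.4 in the submitters' processing notes) for mapping to Rnor_6.0, and deposited raw whole-number counts. The counting program, its strand setting and its treatment of reads with several locations are not given in the sources used here. The 8 markers and all gene lists were chosen with earlier results of these data known.

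Counts were scaled by TMM and fitted in edgeR 4.0.16 (R 4.3.3) by quasi-likelihood over all 9 rats, with 1 mean per group. Genes passing filterByExpr (minimum count 10) were kept, 16837 of 37209, and p-values were adjusted by Benjamini-Hochberg over them. All 8 markers passed. Correlations used log2 CPM with a prior count of 2 and exact permutation tests in Python 3.11.15. The fit was tested on simulated data. The study used EBSeq, and edgeR took its place here with the same thresholds. Alternatives were DESeq2 1.42.0, other scalings and filters, fits of 6 rats, no fold threshold and leaving out each rat. Named were the 8 markers, the leading other deep-layer genes by p, listed relatives and the 10 genes most like the markers. Promoters are RefSeq entries of GRCr8 and share no coordinates with the counts. Of the 33 other deep-layer genes 32 were in the table. Lengths were not used, so levels are not compared between genes.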

Additional observations from a re-analysis of the deposited data

How the results depend on the processing

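Of the recomputed values, 194 counts and medians and 361 fold changes of single markers kept their direction and side of the threshold, while 16 counts and medians moved, 9 fold changes turned and 6 gained a call. The markers called in MS+EA against MS were 3 with all genes of at least 1 count (beside 72 of all 25954 genes) and 3 with DESeq2 (beside 37 of 11613), against 0. The cause was not tested. The markers were picked with this contrast in view, so these calls support nothing. The other deep-layer genes called in MS against Control were 2 (Sla and Svil) with at least 1 count, against 0, beside 207 of all 25954 genes. In MS+EA against Control they were 4 with at least 1 count, 2 with DESeq2, 1 (Svil) in a fit of 6 rats, 3 without the fold threshold and 2 without B4 and C16, an alternative chosen after seeing the data, and 0 to 2 when each rat was left out, with 2 without B4, 2 without C10 and 1 without C16. Leaving out each rat moved the median of the markers in MS against Control from -0.72 to -0.19. The median correlation of marker pairs within groups ran from 0.11 without A2 to 0.56 without B4, and was 0.51 with the group means left in.

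Directions turned for 4 markers, Ctgf, Foxp2, Ntsr1 and Tle4. Leaving out each rat gave -0.10 (without C16) to 0.46 for Ctgf in MS+EA against MS (-0.02 without B6), -0.21 to 0.16 for Foxp2 in MS against Control (0.14 without B4 or without B4 and C16), -1.30 to 0.0077 for Ntsr1 in MS against Control and -0.83 to 0.48 in MS+EA against Control, and -0.15 to 0.014 and -0.054 to 0.11 for Tle4 in those comparisons. Each turn of Ntsr1, the upper value of Foxp2 and the first turn of Tle4 came without A2, and the second turn of Tle4 without A6. A minimum of 10 counts in every rat left out Nxph4 and Ntsr1. No paired analysis was possible because no label pairs a rat of 1 group with a rat of another. With 3 rats a group, differences are limited by the spread between animals, and Nxph4 and Ntsr1 also by depth.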
